A study of Mus musculus with 18 samples.

Results

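Neutrophils of a mouse glioma were read from 1 droplet single-cell library (10x Chromium, 3' chemistry) of an untreated Ras-driven tumour. Of 4384 cell barcodes, 3320 were kept (at least 500 unique molecular identifiers, UMIs, at least 300 genes and at most 20% of UMIs in mitochondrial genes). A kept cell counted as a neutrophil when at least 2 of S100a8, S100a9, Csf3r and Cxcr2 were detected and their sum was at least 1 per 1000 UMIs. The rule found 74 cells, 2.23% of the kept cells (exact Clopper-Pearson 95% interval 1.75 to 2.79), which held 0.461% of the kept UMIs. The members were thus chosen by the measured levels of these 4 genes, whose values are a description with no test, and with 1 library no difference between cells has a replicate.

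The tumour carried HRasV12 with a dominant negative p53 and grew in a mouse of the Boy/J strain. Per the labels it was minced, digested with collagenase and freed of red cells by lysis, and no sort or perfusion is described for it, so blood neutrophils and those of the tissue cannot be told apart. A second cell suspension from such a tumour was run by Drop-seq. Bulk RNA was read from Ras tumours of Boy/J mice given vehicle (n = 4, also labelled untreated) or PLX3397 (n = 4) daily by mouth at 100 mg/kg from day 7 after implantation until they were moribund. It was also read from CD11b-positive cells, isolated with magnetic beads from PDGFB-driven tumours of perfused Boy/J mice after 3 days of vehicle (n = 1) or PLX3397 (n = 2) at 100 mg/kg from day 14. Cultured lines from Ras (n = 2) and PDGF tumours (n = 3) were read for the same genes. PLX3397 inhibits CSF1R, the receptor that macrophages and microglia need to survive, and also acts on KIT and FLT3.

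Neutrophils are short-lived granulocytes made in the bone marrow under the growth factor G-CSF, whose receptor is Csf3r. They leave the blood along gradients of CXC chemokines that Cxcr2 senses, and carry ready-made granule proteins, an NADPH oxidase and large amounts of the calcium-binding pair S100A8 and S100A9. Granule genes are transcribed in marrow precursors, and the mature cell turns to genes of migration, survival and cytokine release.

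The member genes with the highest levels among those of the rule, S100a8 (chromosome 3, 90668978 to 90670035) and S100a9 (chromosome 3, 90692632 to 90695721, GENCODE on GRCm38), encode the chains of calprotectin and lie 22596 bases apart on opposite strands. Their levels moved together from cell to cell, as described below, so the bases before their starts are shown, from the RefSeq promoter table (GRCm38.p6), in the direction of each gene. Capitals mark matches on either strand to 2 motifs of myeloid transcription factors, the C/EBP motif TTNNGNAA and the PU.1 core GAGGAA, which were chosen after the sequences had been seen.
S100a8: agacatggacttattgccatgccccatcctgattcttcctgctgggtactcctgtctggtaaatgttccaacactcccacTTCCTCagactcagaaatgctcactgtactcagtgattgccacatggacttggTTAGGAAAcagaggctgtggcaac
S100a9: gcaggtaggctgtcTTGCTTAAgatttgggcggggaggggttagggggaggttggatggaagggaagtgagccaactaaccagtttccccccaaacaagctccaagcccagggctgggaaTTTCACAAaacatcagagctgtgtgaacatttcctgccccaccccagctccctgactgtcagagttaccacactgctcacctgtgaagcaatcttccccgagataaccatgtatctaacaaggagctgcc
The S100a8 stretch (chr3:90668821-90668977, plus strand) stops where the GENCODE gene model begins, and the S100a9 stretch (chr3:90695722-90695971, minus strand) runs to the gene start. The first has 1 PU.1 core, on the other strand, 170 to 165 bases before the RefSeq start, and 1 C/EBP match 117 to 110 bases before it. A further PU.1 core on the other strand, 36 to 31 bases before that start, lies past the end of the S100a8 stretch. The S100a9 stretch has 2 C/EBP matches on the other strand, 236 to 229 and 130 to 123 bases before its start, and no PU.1 core. Over windows of 250 bases before 32851 gene starts, 36.8% hold the C/EBP motif and 23.3% the PU.1 core, so these letters are common. The S100a8 stretch shown, of 157 bases, is shorter than such a window. A match is a description of the sequence and not a binding site.

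The 4 genes of the rule differed in how evenly the 74 cells carried them. S100a9 stood at 149 UMIs per 10000 (exact Poisson 95% interval 145 to 154, counting error only) and had UMIs in 69 of the cells. S100a8 stood at 124 (120 to 129), also in 69 cells. Csf3r (chromosome 4, 126024550 to 126044440) stood at 11.7 (10.4 to 13.2) in 62 cells, and Cxcr2 (chromosome 1, 74153989 to 74161246) at 10.7, from 269 UMIs in 51 cells. The S100 pair was thus an order of magnitude above the receptors, on a scale of transcripts counted at their 3' ends.

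Cell by cell, the level of S100a8 ran from 0 to 845 per 10000 with a median of 65.3, and that of S100a9 from 0 to 617 with a median of 75.4. Csf3r ran from 0 to 53.4 (median 11.7) and Cxcr2 from 0 to 51.5 (median 7.14). The S100 pair therefore spread over more than the receptors did. Across the 74 cells the rank correlation of S100a8 with S100a9 was 0.92, that of Csf3r with Cxcr2 was 0.48, and the 4 correlations between an S100 gene and a receptor lay between -0.0099 and 0.19. All points come from 1 library and share its depth, and the rule itself used these genes.

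**Figure D1:**
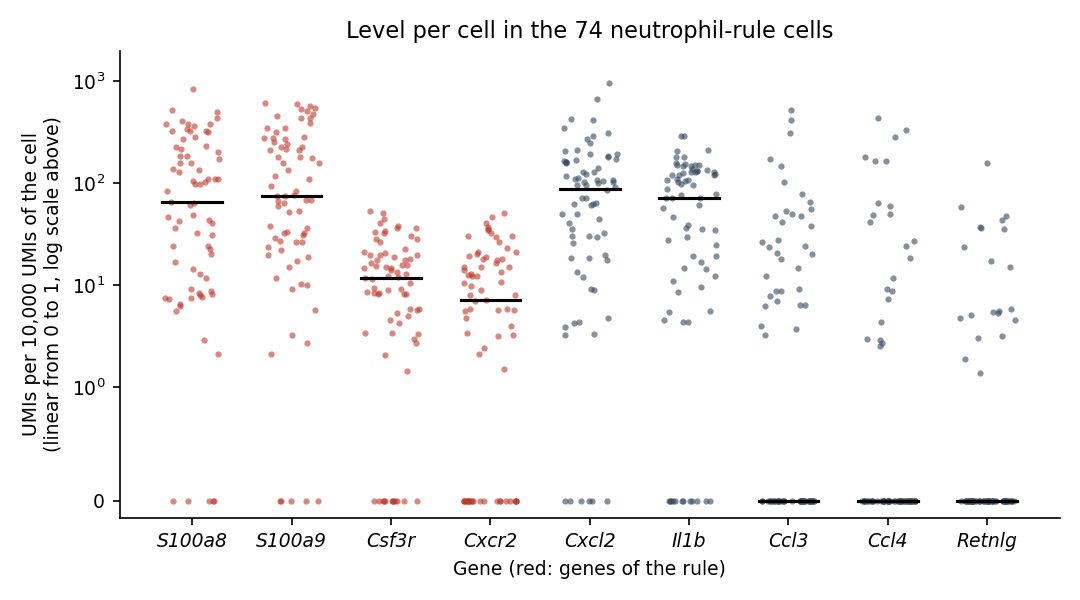
Level of 9 genes in each of the 74 neutrophil-rule cells of the 10x library, in UMIs per 10000 UMIs of the cell (y axis, linear from 0 to 1 and logarithmic above). Each point is 1 cell and the line is the median. S100a8 and S100a9 reach 845 and 617, while the medians of Ccl3, Ccl4 and Retnlg are 0 because 39, 51 and 53 of the cells have no UMI of them.

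In all, 43 cells had all 4 genes, 17 had 3 and 14 had 2, most often S100a8 with S100a9 (10 cells). The sum of the 4 ran from 1.36 to 145 per 1000 UMIs with a median of 17.2. The members nearest the limit stood at 1.36, 1.72, 1.76, 1.85 and 2.33. The nearest cells under it, among 13 with at least 2 of the genes, stood at 0.574, 0.525, 0.421, 0.266 and 0.232, so no cell with 2 or more of the genes lay between 0.574 and 1.36. These 13 cells had a median of 23987 UMIs, far above the members. A further 15 kept cells reached the sum with 1 gene of the 4 only, and 1 barcode that met the rule was not kept because 20.4% of its UMIs were mitochondrial.

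The neutrophils were small in RNA. They had a median of 3124 UMIs (670 to 26298) and 1325 genes, with 2.41% of UMIs mitochondrial, against a median of 8999 UMIs and 6.26% in the other 3246 cells. For comparison, the other cells were split by rule into 489 C1q cells (at least 2 of the macrophage complement genes C1qa, C1qb and C1qc, at 1 or more per 1000 UMIs, median 5162 UMIs), 30 monocyte-gene cells (the same with Ly6c2, Ccr2, F13a1 and Vcan, median 10607) and 2727 remaining cells (median 10169). UMIs of S100a8 were found in 2.86% of the C1q cells and 2.16% of the remaining cells, and of Cxcr2 in 0.409% and 0.660%. After each cell was thinned to 500 UMIs, S100a8 was found in 73.0% of the neutrophils, in 0 of the C1q cells and in 0.330% of the remaining cells. Csf3r was found in 18.0% of the C1q cells, or 1.23% after thinning, against 40.5% of the thinned neutrophils.

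The label was compared with markers that the rule did not use and with clusters of the cells. No member met the C1q or the monocyte-gene rule, and 57 of the 74 had no C1q UMI. Unsupervised clusters (Leiden) drew on the expression of the same cells, so they are no independent check. They placed 72 of the 74 in 1 cluster of 84 cells. Its 12 other cells had a median of 1929 UMIs, and 6 of them had no UMI of the 4 genes, yet 9 had Cxcl2 and 8 had Il1b. The doublet caller Scrublet marked 0 of the 3320 cells, so doublets were not removed. Marker genes of T and NK cells (9 of 10), mast cells and basophils (7 of 8), eosinophils (6 of 8) and B cells (4 of 6) had no UMI in any member, where a count of 0, taken as up to 3 UMIs, allows up to 0.119 per 10000.

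Markers of other lineages were mostly low. The 12 macrophage markers summed to 20.3 per 10000 in the neutrophils against 636 in the C1q cells, with Ms4a7, Mrc1 and Trem2 at 0, and most of that sum was Cd63 (10.4) and Apoe (7.26, against 58.9 in all other cells). The 12 tumour and glial markers summed to 15.9 against 59.1 in the remaining cells, 13.1 in C1q cells and 5.32 in monocyte-gene cells. Fabp7 (7.42) and Ptprz1 (2.06) led, and 1 barcode of 14490 UMIs held 16 of the 52 Ptprz1 UMIs. The part of free RNA in these values was not tested. Markers of red cells summed to 1.55 against 73.5 in all other cells. The 10 microglia markers summed to 9.60 against 27.2 in the C1q cells, 11.5 in all other cells and 4.27 in the monocyte-gene cells. Of their 242 UMIs in the neutrophils, 179 were of Sparc, 132 of these in 1 barcode, while Sall1, Cx3cr1, Gpr34 and Fcrls were at 0. The 8 monocyte markers summed to 8.65 against 7.57 in all other cells and 137 in the monocyte-gene cells, which were picked by 4 of them, with F13a1 and Ms4a4c at 0, and the 10 dendritic cell markers to 2.14 against 7.36 in all other cells, with Flt3, Clec9a, Cd209a and Zbtb46 at 0.

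Pericyte genes came from 1 barcode. The 8 endothelial and pericyte markers summed to 8.49 against 2.31 in all other cells, but the neutrophil barcode with the most UMIs (26298) held 40 of 40 UMIs of Pdgfrb, 95 of 97 of Rgs5, 47 of 48 of Kcnj8 and 132 of 179 of the matrix gene Sparc. Without it, Rgs5 stood at 0.0886 per 10000, Kcnj8 at 0.0443 and Pdgfrb at 0.

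Genes typical of mouse neutrophils outside the rule were high as a group. All 19 of the 19 identity genes with enough UMIs (a mean of both levels of at least 0.4 per 10000) were at least 4-fold higher than in all other cells, with a median log2 fold of 6.99. Of all 4196 genes with enough UMIs, 12.9% were at least 4-fold higher and 6.12% at least 4-fold lower, with a median log2 fold of -0.287. These are counts over the same cells that the rule chose, and a gene can have enough UMIs only through the neutrophils that carry it, so they describe the cells and support nothing further. Wherever a list is counted below, higher and lower mean by at least 4-fold in this comparison.

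Of the identity genes, the chemokine Cxcl2 led with 126 per 10000 (122 to 130), in 68 cells. The lipase inhibitor G0s2 stood at 48.6, the gelatinase Mmp9 at 15.8, the receptor Hcar2 at 13.5, the interleukin-1 decoy receptor Il1r2 at 11.8 and the repressor Mxd1 at 10.1. Retnlg (chromosome 16, 48872621 to 48874496), a resistin-like secreted protein, stood at 5.36 in 21 cells only, up to 160 in a single cell. Ly6g, the surface antigen by which mouse neutrophils are usually sorted, had 2 UMIs in 1 cell, and Stfa2 and BC100530 had none.

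Few transcripts were close to private to these cells. At least 80% of the UMIs of a gene over all kept cells lay in the neutrophils for 4 genes with 50 or more UMIs, namely S100a9 (98.0%), S100a8 (97.1%), Retnlg (96.4%) and Cxcr2 (89.7%). The rule itself favours its own genes here, and the shares are a description. For the histamine-forming enzyme Hdc the share was 77.7%, for Slfn4 65.0%, for Csf3r 61.0%, for Ccl3 60.1%, for Cxcl2 47.4% and for Il1b 27.5%. Thus 74 cells with 0.461% of the UMIs held most of the UMIs of Hdc, Slfn4, Csf3r and Ccl3. The 25 genes with the largest fold also held the antiviral and sensing genes Slfn1 (6.94 per 10000) and Trim30b (2.42), the prostaglandin enzyme Ptgs2 (11.6), the platelet-activating factor receptor Ptafr (3.77), the inhibitory receptor Cd300lf (9.60), Ccrl2 (12.3), the itaconate enzyme Irg1 (6.63), H2-Q10 (2.66), Mirt1 (2.94) and RP23-6I17.1 (2.58).

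Most granule genes were low or at 0. Of the 6 genes of primary granules, formed in promyelocytes, Mpo, Elane, Ctsg and Serpinb1a had no UMI in any member. Prtn3 stood at 0.555 per 10000 and Ctsc, which activates the granule proteases, at 0.754, below its 15.1 in C1q cells. Of the 12 genes listed for secondary and tertiary granules, 5 of the 7 with enough UMIs were higher and 0 lower, while Camp, Ngp and Itgb2l were at 0. The higher ones included Ltb4r1 (1.35), a leukotriene receptor that is also listed among the chemotaxis receptors. Mmp9 (15.8), Lcn2 (2.98, an iron-siderophore trap), Cd177 (1.39) and Ltf (1.07, lactoferrin) were present, Ltf in 11 cells, while Mmp8 had 7 UMIs in 1 cell and Olfm4 had 1 UMI. Lyz2, lysozyme, stood at 3.61 against 92.1 in the C1q cells and 96.3 in the monocyte-gene cells. Genes of cell division were low, with 6 of 7 lower and a sum of 1.86 against 11.0 in all other cells, and Mki67 at 0.159 against 1.00.

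Most receptors of migration were higher than in all other cells. Of the 11 chemotaxis receptors with enough UMIs, 10 were higher and 0 lower. The 12 receptors summed to 57.3 per 10000 against 8.20 in C1q cells and 19.5 in monocyte-gene cells. The rule genes Csf3r (11.7) and Cxcr2 (10.7) are among the 12. Part of these counts and of the sum was thus fixed by the choice of cells. Beside Csf3r and Cxcr2 the higher ones included the chemerin-binding Ccrl2 (12.3), the chemokine receptor Ccr1 (7.10), Ptafr (3.77), the complement C5a receptor C5ar1 (2.42), the formyl peptide receptor Fpr2 (1.75), the leukotriene receptor Ltb4r1 (1.35) and Cxcr4 (2.10), which holds neutrophils in the marrow. Monocyte-gene cells stood above the neutrophils for C5ar1 (4.27) and Ltb4r1 (2.79). Fpr1 had 5 UMIs, and the tumour necrosis factor receptor Tnfrsf1a was not 4-fold apart (1.79 against 1.11 in all other cells). Of the 6 adhesion genes with enough UMIs, 5 were higher, among them the hyaluronan receptor Cd44 (6.94) and the selectin ligand Selplg (3.02). The adhesion list summed to 16.1 against 19.2 in monocyte-gene cells.

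The NADPH oxidase was uneven across its subunits. The cytosolic subunits Ncf1 (9.28 per 10000 against 1.91 in C1q cells) and Rac2 (4.92 against 2.66) were above the C1q cells, and Ncf4 (1.86 against 1.51) was close to them. The membrane subunits were not, with Cyba at 5.99 against 14.3 and Cybb, the catalytic subunit, at 0.159 (0.0432 to 0.406) against 3.39. Over the 6 genes the sums were therefore alike, 26.0 in neutrophils and 25.7 in C1q cells, with 4 of 5 higher than in all other cells. Monocyte-gene cells stood above both, at 33.8.

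Fc receptors, lectins and their adaptors showed the same mixed picture, with 8 of 10 higher. The list summed to 72.7 against 99.8 in monocyte-gene cells. The adaptors Tyrobp (22.0) and Fcer1g (16.4) stood near the 18.9 and 22.6 of the C1q cells, and the low-affinity receptor Fcgr3 at 7.66 against 8.18. Cd300lf (9.60 against 0.635), Lilrb4a (5.44 against 1.67) and Cd33 (4.48 against 0.511) stood above them, and the high-affinity receptor Fcgr1 below (0.119 against 2.86).

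**Figure D2:**
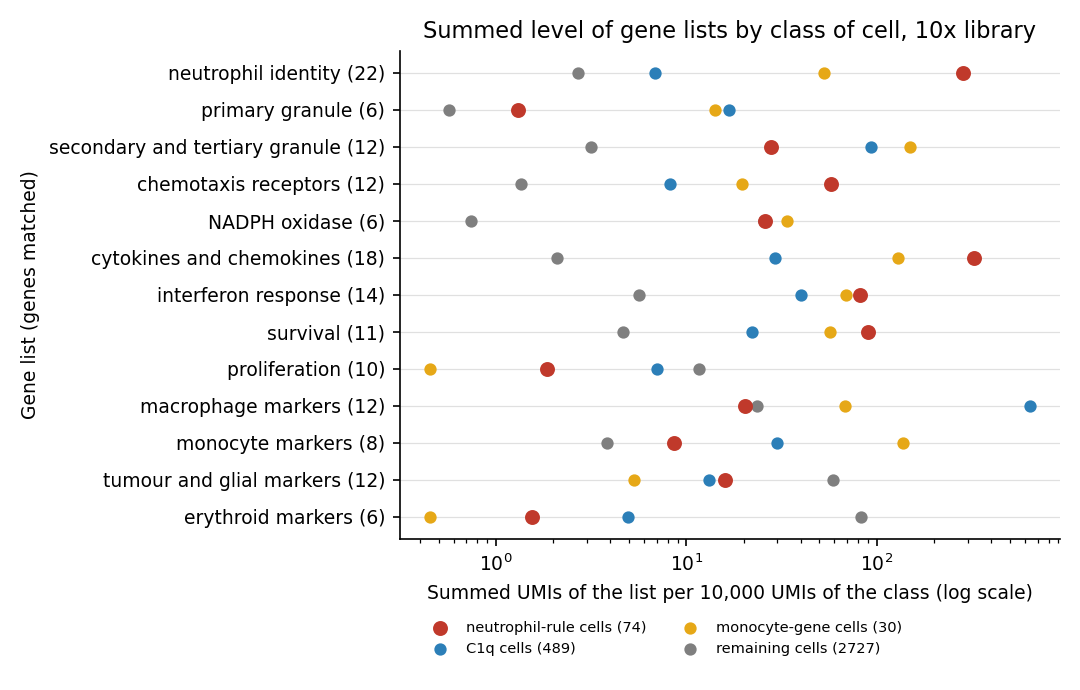
Summed UMIs of 13 gene lists per 10000 UMIs of each class of cell in the 10x library (x axis, logarithmic), for the 74 neutrophil-rule cells and 3 other classes. The neutrophils lie to the right of the other classes for identity genes (283), chemotaxis receptors (57.3), cytokines (324), interferon-response genes (81.5) and survival genes (90.1), and at 1.31 for primary granule genes against 16.8 in C1q cells. The chemotaxis receptors include the rule genes Csf3r and Cxcr2.

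Cytokines and chemokines were the most abundant list, at a sum of 324 per 10000 against 29.4 in C1q cells and 130 in monocyte-gene cells, with 11 of 13 higher and 0 lower. Cxcl2 (126) and Cxcl3 (8.65) are ligands of Cxcr2 itself. Interleukin-1 beta, Il1b, stood at 74.4 (71.1 to 77.9) in 62 cells, and its antagonist Il1rn at 17.4. The CC chemokines Ccl3 (chromosome 11, 83647844 to 83649355) at 35.7 and Ccl4 at 30.8 came from 35 and 23 cells, and Ccl3 stood at 18.3 among cells with at least 3 of the 4 rule genes. Ccl6 stood at 12.8 and oncostatin M, Osm, at 7.14. Monocyte-gene cells also carried Cxcl2 (37.1) and Il1b (42.9), but Ccl3 (0.834) and Ccl4 (1.99) at low levels.

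Several other cytokines were rare or absent in these cells. Ccl2, the monocyte attractant, had 4 UMIs (0.159 per 10000, against 4.13 in C1q cells), Cxcl1 had 3 UMIs in 1 cell, and Il6 and Il10 had none. Of the 10 ligands and growth factors that draw or make neutrophils, Cxcl5, Ppbp, Csf3, Csf2, Il17a and Cxcl12 were at 0 in the members. Tnf stood at 1.75 and Vegfa at 2.14. Csf1, the ligand of CSF1R, was found in 43 cells and stood at 3.49 against 0.650 in C1q cells.

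Survival genes were high, with 8 of 10 higher and 0 lower. Mcl1, on which neutrophils depend for survival, stood at 25.1 per 10000, the kinase Pim1 at 21.4, Btg1 at 19.6, Gadd45b at 10.2, Bcl2a1b at 5.32 and Bcl2a1a at 3.49. The Bcl2a1 genes are near-identical copies, so the split of UMIs between them is uncertain. Of the transcription factors, 7 of 10 were higher, and the list summed to 135 against 125 in monocyte-gene cells. The highest levels were those of Junb (44.4), Cebpb (35.8 in 72 cells, against 42.7 in monocyte-gene cells), Fos (27.3), Klf2 (8.57), Klf6 (5.63) and Spi1, which encodes PU.1 (126 UMIs in 44 cells), and Fos and Klf6 were not 4-fold apart from all other cells. Gfi1, of precursors, was at 0, and Cebpe had 7 UMIs.

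Interferon-response genes were higher in 12 of 14 cases, at a sum of 81.5 per 10000 against 40.2 in C1q cells and 69.2 in monocyte-gene cells. Some of that sum rested on few cells, and the median cell stood at 35.8 among the neutrophils and at 57.8 among the monocyte-gene cells. Rsad2 (13.5) had 341 UMIs in 25 cells, 85 of them in 1 cell, and Cxcl10 (2.70) had 68 UMIs in 5 cells, 35 of them in 1. Isg15 (13.2), Ifitm3 (11.2, against 34.5 in monocyte-gene cells), Ifitm2 (8.45), Slfn1 (6.94) and Oasl2 (6.90) were spread over 39 to 55 cells.

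Genes reported for neutrophils of tumours, and genes of low oxygen, were mixed. Of 16 tumour-neutrophil genes, 11 were higher and 1 lower, and the list summed to 131 against 123 in monocyte-gene cells. They included Ptgs2 (11.6), the checkpoint ligand Cd274 (PD-L1, 4.92 in 31 cells), the cathepsin inhibitor Cstb (8.93), the co-receptor Cd14 (8.33) and Arg2 (1.63). Monocyte-gene cells had Cstb at 9.43 and Cd14 at 14.3. Arg1 was the lower one, at 0.278 against 21.8 in C1q cells and 42.8 in monocyte-gene cells. Siglecf, which marks eosinophils and some tumour neutrophils, stood at 1.15 in 13 cells, where 6 of the other eosinophil markers were at 0. Of 13 genes of hypoxia and glycolysis, 4 were higher, among them Hilpda (9.56, lipid droplets), Egln3 (3.73, an oxygen sensor) and Hk2 (3.61), while Pkm (10.3 against 6.86 in all other cells) and Ldha (7.78 against 6.18) were not 4-fold apart. This list summed to 55.6 against 72.3 in monocyte-gene cells.

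The neutrophils were not uniform, and Ccl3 divided them. This split was chosen after the values had been seen, and it is a description. UMIs of Ccl3 were found in 35 cells (median depth 3106 UMIs) and in none of the other 39 (median 3222). The deepest cell of the first group had 6903 UMIs, and that of the second had 26298, so pooled levels of the second lean on few cells. The level of Ccl3 itself depends on the rule, at 18.3 per 10000 in place of 35.7 with at least 3 of its 4 genes. Both Ccl3 and Cxcr2 were found in 16 cells, Ccl3 without Cxcr2 in 19, Cxcr2 without Ccl3 in 35 and neither in 4. Cxcr2 stood at 7.32 per 10000 (5.79 to 9.12) in cells with Ccl3 and at 13.2 (11.4 to 15.2) in those without, a ratio of 1.80, or 2.16 without the deepest cell. Cxcr2 is a gene of the rule, so this is a description only. After thinning to 500 UMIs, Cxcr2 was found in 25.7% of the cells with Ccl3 and 51.3% of those without, and the unthinned shares were 45.7% and 89.7%.

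Cells with Ccl3 had higher levels of several chemokines and of some genes of low oxygen. Genes of hypoxia and glycolysis were mixed, since the Poisson intervals of Pkm (11.1 against 9.72 per 10000), Eno1 (6.20 against 5.28) and Egln3 (4.54 against 3.12) overlapped. The share of all genes without such overlap was not computed, so the genes of this list are not counted. Ccl4 stood at 71.7 per 10000 in cells with Ccl3 and at 0.139 in the others, Cd274 at 10.5 against 0.764, Hilpda at 19.6 against 2.01 and Hcar2 at 26.2 against 4.03. Cxcl3 (18.3 against 1.39), Ccl6 (23.5 against 4.72), Vegfa (3.98 against 0.764), Ero1l (6.85 against 1.39) and Cstb (14.5 against 4.72) showed the same order. Cxcl2 was at 184 against 82.5, while Cxcl10 (3.06 against 2.43) and Osm (7.13 against 7.15) overlapped. Lactoferrin, Ltf, had 25 of its 27 UMIs in cells with Ccl3. For the other genes of this paragraph the intervals did not overlap, but they cover counting error only.

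Cells without Ccl3 had higher levels of Il1b (92.9 against 49.7 per 10000), Mmp9 (21.4 against 8.24) and the oxidase subunits Ncf1 (12.6 against 4.91) and Rac2 (6.46 against 2.87). Lrg1, a secreted glycoprotein of neutrophil granules (6.11 against 1.57), Retnlg (7.50 against 2.50), Trem1, an amplifying receptor (5.41 against 2.41), and Cd177 (2.15 against 0.370) showed the same order. S100a8 (116 against 135), S100a9 (141 against 161), Cebpb (35.0 against 37.0) and G0s2 (48.2 against 49.1) differed by at most 1.16-fold, although the intervals of S100a8 and S100a9 did not overlap.

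Across the 74 cells, and with no test, the rank correlation with Ccl3 was 0.75 for Ccl4, 0.64 for Hcar2, 0.55 for Cstb and 0.54 for Cd274, and it was -0.51 for Ncf1, -0.50 for Rac2, -0.50 for Cxcr2 and -0.47 for Il1b. The genes most like Cxcr2 were Il1b (0.70), Selplg (0.68), Trem1 (0.65), Cd33 (0.61) and Lrg1 (0.60). These values share 1 library, and the level of a gene in a cell with so few UMIs is coarse. With total UMIs, Ccl3 had a correlation of 0.095 and Cxcr2 of 0.21.

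**Figure D3:**
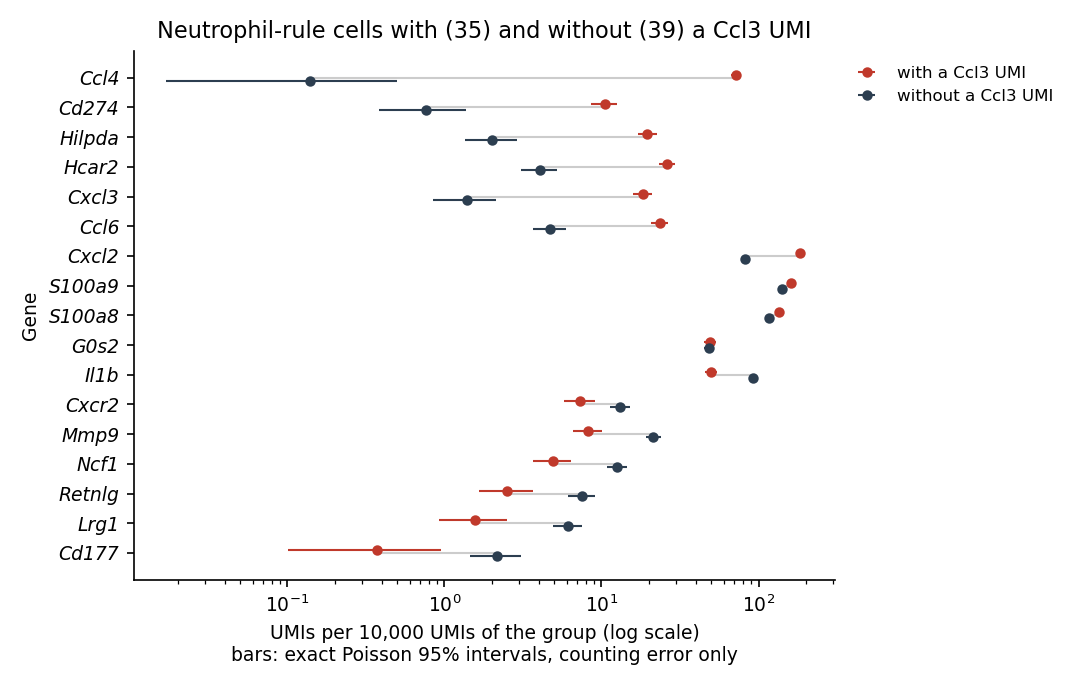
Pooled level of 17 genes in the 35 neutrophil-rule cells with a Ccl3 UMI and the 39 without, in UMIs per 10000 UMIs of the group (x axis, logarithmic). Bars are exact Poisson 95% intervals for counting error. Ccl4 stands at 71.7 and 0.139, Cxcr2 at 7.32 and 13.2, and G0s2 at 49.1 and 48.2.

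In the Drop-seq library of a Ras tumour the same rule found 1 cell among 4901 kept barcodes (at least 300 UMIs and 200 genes), 0.0204% (exact 95% interval 0.000517 to 0.114). That cell had 7274 UMIs, 6 of S100a8, 14 of S100a9 and 2 of Cxcr2. The median depth was 1396 UMIs, and the 10x cells thinned to that depth still gave 73 members. The 2 libraries shared 0 cell barcodes. They are 1 library per method, so tumour, cell capture and method cannot be told apart.

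Bulk tumours with and without PLX3397 addressed whether neutrophil transcripts changed with CSF1R inhibition, from 31.2 to 35.8 M counts a library. S100a8 stood at 0.570, 0.706, 4.86 and 1.99 CPM (counts in each 1000000 of the library, scaled by TMM) in the vehicle tumours and at 4.14, 2.45, 1.67 and 1.34 under PLX3397. The groups overlapped, with vehicle replicate 3 the highest of all, and the log2 fold was 0.24 (SE 0.71, edgeR quasi-likelihood test, Benjamini-Hochberg adjusted p = 0.9998). In bulk tissue, fewer cells of a type and less RNA per cell cannot be told apart. S100a9 stood at 1.35, 1.80, 8.17 and 4.12 CPM under vehicle and at 4.67, 4.58, 2.94 and 2.98 under PLX3397, which gave a log2 fold of -0.026 (SE 0.56, edgeR adjusted p = 0.9998). Vehicle replicate 3 was again the highest, and the sign of both genes turned when single libraries were left out, with log2 folds of -0.16 (without PLX3397 replicate 1) to 1.14 (without vehicle replicate 3) for S100a8 and of -0.29 (without vehicle replicate 1) to 0.65 (without vehicle replicate 3) for S100a9.

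Cxcr2 stood at 1.02, 0.321, 1.13 and 0.979 CPM under vehicle and at 2.30, 1.95, 0.736 and 1.01 under PLX3397, and its log2 fold was 0.79 (SE 0.51). Retnlg lay between 0.120 and 0.386 CPM under vehicle and between 0.125 and 0.655 under PLX3397, from 4 to 22 raw counts a library. Csf3r stood at 22.2, 22.0, 21.5 and 3.82 under vehicle and at 16.0, 12.7, 3.65 and 6.81 under PLX3397, with a log2 fold of -0.83 (SE 0.62). All of these overlapped between the groups and had an edgeR adjusted p of 0.9998. Csf3r is not private to neutrophils, since 61.0% of its UMIs in the 10x library lay in them and 18.0% of the C1q cells had a UMI of it. The part of other cells in its bulk level was not tested.

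In this comparison edgeR called 0 of 18366 genes (0% higher and 0% lower at an adjusted p under 0.05), while 648 had an unadjusted p under 0.05 and DESeq2 called 178. Among the 18366 genes, 0.414% had an unadjusted p under 0.05 and were higher, and 3.11% were lower. Every PLX3397 library was above every vehicle library for 0.446% and below for 2.09%. None of the 4 rule genes had an unadjusted p under 0.05. Of the 17 identity genes tested, 0 were higher and 3 lower at that level, 2 of them without overlap, and their median log2 fold was 0.068 against 0.0015 for all genes.

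The identity genes with the lowest p were not restricted to neutrophils. Il1r2 stood at 19.5, 27.0, 29.7 and 26.1 CPM under vehicle and at 4.83, 5.32, 2.97 and 4.40 under PLX3397, a log2 fold of -2.54 (SE 0.24, edgeR adjusted p = 0.0722, or from 1.83e-20 with DESeq2 to 0.697 over its alternatives). Trem1 stood at 11.4, 8.96, 13.1 and 22.0 under vehicle and at 4.17, 3.96, 2.55 and 2.89 under PLX3397, a log2 fold of -2.03 (SE 0.33, edgeR adjusted p = 0.319). For both, all 4 PLX3397 libraries were below all 4 vehicle libraries. In the single-cell library 35.9% of the Il1r2 UMIs and 19.3% of the Trem1 UMIs lay in neutrophils, so most lay elsewhere. Mmp9 stood at 18.2, 14.5, 188 and 535 CPM under vehicle and at 13.6, 20.8, 14.5 and 11.5 under PLX3397 (log2 fold -3.65, SE 1.12, edgeR adjusted p = 0.791), a difference carried by vehicle replicates 3 and 4.

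The oxidase and the Fc receptors, which neutrophils share with macrophages, lay lower in the PLX3397 tumours. For all 6 NADPH oxidase genes every PLX3397 library was below every vehicle library, with a median log2 fold of -1.61. Cybb, nearly absent from the neutrophils, stood at 173, 78.8, 115 and 89.1 CPM under vehicle and at 31.2, 33.6, 11.1 and 19.9 under PLX3397. Of the 14 genes of Fc receptors and lectins, 9 had an unadjusted p under 0.05 and were lower, and so did 9 of the 12 macrophage markers. Their median log2 folds were -1.27 and -1.34. The chemotaxis receptors Ccr1 (log2 fold -1.96), Fpr1 (-1.42) and C5ar1 (-1.15) lay below without overlap, while Ccrl2 (-0.050) and Ptafr (-0.20) overlapped. No gene of these lists passed the edgeR test after adjustment.

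Ligands that draw neutrophils had positive log2 folds in 5 of the 7 cases tested, with overlap in each. Cxcl5 stood at 3.36, 1.16, 2.59 and 0.878 CPM under vehicle and at 23.4, 4.91, 0.962 and 2.26 under PLX3397 (log2 fold 1.97, SE 0.97, edgeR adjusted p = 0.9998). Cxcl1 (log2 fold 1.06, SE 0.61), Cxcl2 (1.11, SE 0.58) and Cxcl3 (1.47, SE 0.66) did not pass either. Genes of granule precursors peaked in 1 vehicle library, replicate 3, with Ngp at 9.22 CPM and Ltf at 5.27, where the other vehicle libraries had at most 2.77 and 1.49.

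**Figure D4:**
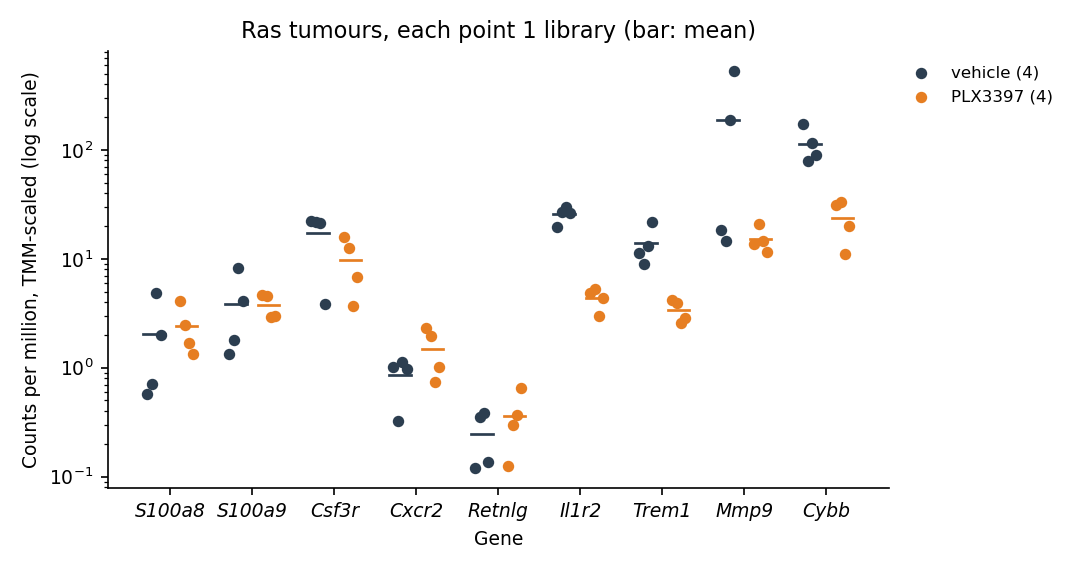
Level of 9 genes in the 8 Ras tumour libraries, in TMM-scaled CPM (y axis, logarithmic), with 1 point a library and a bar at the mean of 4. The groups overlap for S100a8, S100a9, Csf3r, Cxcr2 and Retnlg, while every PLX3397 library lies below every vehicle library for Il1r2, Trem1 and Cybb, and Mmp9 reaches 188 and 535 in 2 vehicle libraries.

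CD11b is an integrin chain of neutrophils as well as of macrophages, microglia and monocytes, so a selection for it keeps neutrophils, although the labels call these cells TAMs. The 3 libraries held 26.8 to 30.9 M counts and were scaled apart from the tumours. S100a8 stood at 24.97 CPM after vehicle against 41.9 and 98.1 after PLX3397 (log2 fold 1.49, SE 0.55, edgeR adjusted p = 0.164). S100a9 was at 59.3 against 92.5 and 207 (log2 fold 1.33, SE 0.52, edgeR adjusted p = 0.177). Csf3r was at 192 against 318 and 365 (log2 fold 0.83, SE 0.19, edgeR adjusted p = 0.0677). Cxcr2 was at 11.3 against 23.7 and 55.5 (log2 fold 1.81, SE 0.57, edgeR adjusted p = 0.127). Both PLX3397 libraries were above the vehicle library for all 4 genes. None of the 4 passed the edgeR test, which has 1 residual degree of freedom. With DESeq2, Csf3r (adjusted p = 0.00824) and Cxcr2 (0.000647) passed. PLX3397 replicate 2 was the higher of the pair for each. Without it the log2 folds, with no test, were 0.74 for S100a8, 0.64 for S100a9, 0.72 for Csf3r and 1.04 for Cxcr2. As in the tumours, the part of cells other than neutrophils in the level of Csf3r was not tested.

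With 1 vehicle library such an order is common. Both PLX3397 libraries were above the vehicle library for 41.6% of the 15052 genes and below it for 42.0%. The edgeR test called 688 genes higher (4.57%) and 268 lower (1.78%), and every call rests on that 1 vehicle library. Retnlg stood at 5.14 CPM against 5.87 and 10.8 (log2 fold 0.70, edgeR adjusted p = 0.374). Of the 20 identity genes tested, 12 lay above and 4 below, and 1 was called.

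That gene was Lrg1 (chromosome 17, 56119678 to 56122001), which rose from 8.24 CPM to 28.5 and 40.9 (log2 fold 2.07, SE 0.30, edgeR adjusted p = 0.0417). Among the other lists, Lcn2 rose from 7.14 CPM to 68.7 and 50.9 (log2 fold 3.06, SE 0.28, edgeR adjusted p = 0.0305) and Arg2 from 8.24 to 26.7 and 36.6 (log2 fold 1.94, edgeR adjusted p = 0.0404). In the Ras single-cell library 25.4% of the Lrg1 UMIs, 46.6% of the Arg2 UMIs and 2.11% of the Lcn2 UMIs lay in neutrophils. Markers of tumour and glia moved with them, since all 12 were above in both PLX3397 libraries and 7 were called higher, with a median log2 fold of 2.62. The part of such cells in the values of Lrg1, Lcn2 and Arg2 was not tested.

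Ngp and Camp, granule genes with no UMI in the 10x neutrophils, had counts in these cells. Ngp stood at 10.1 CPM against 15.1 and 33.3, Camp at 1.34 against 2.03 and 6.08, and Ltf at 6.04 against 7.79 and 19.1. Of the 12 genes listed for secondary and tertiary granules, a list that includes the receptor Ltb4r1, 9 lay above, and Lcn2 was called. Oxidase genes went the other way, with 5 of 6 below and Ncf4 called lower, falling from 197 CPM to 114 and 113 (log2 fold -0.80, edgeR adjusted p = 0.0490). Il1r2 (271 against 78.1 and 164) and Trem1 (224 against 71.4 and 159) lay below and were not called. All 14 interferon-response genes had negative log2 folds, with a median of -0.32, and none was called by edgeR. In both PLX3397 libraries 12 of them lay below the vehicle library, as did 42.0% of all genes.

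**Figure D5:**
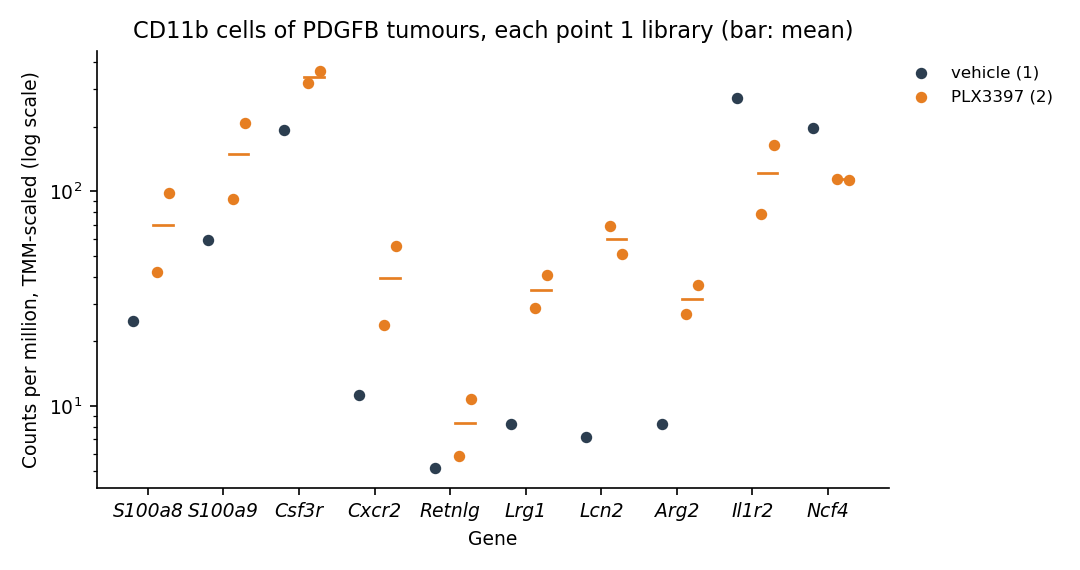
Level of 10 genes in the 3 libraries of CD11b-positive cells of PDGFB tumours, in TMM-scaled CPM (y axis, logarithmic), with 1 point a library and a bar at the mean of the PLX3397 pair. S100a8 stands at 24.97 after vehicle and reaches 98.1 after PLX3397 without passing the test, while Lrg1, Lcn2, Arg2 and Ncf4 passed it.

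In the 5 cultured lines the rule genes were at or near 0. S100a9 and Retnlg had no count, Cxcr2 reached 0.0615 CPM, Csf3r 0.710 and S100a8 0.723. None of these genes had more than 24 counts in a library. PDGF line 3, with the highest Csf3r, also carried macrophage transcripts, with Lyz2 at 104 CPM, C1qc at 27.4 and C1qa at 18.9, where the other 4 lines had at most 1.21, 0.333 and 0.231. The part of such cells in its Csf3r was not tested, and the other lines reached 0.307.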

How the data were processed

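Neutrophils were read in 1 10x library and compared with 1 Drop-seq library, 8 tumour, 3 CD11b-positive and 5 cell-line bulk libraries of the mouse. The authors deposited raw counts: UMI counts per gene and barcode for the single-cell libraries, and read counts per gene symbol for the bulk tables. Per the submitters' processing notes, the tools were STAR 2.6.1e, Cell Ranger, featureCounts 1.6.2, FastQC 0.11.7, cutadapt 1.9.1 and Trim Galore 0.4.2, and the build was GRCm38 (mm10). The 10x file header names software version 3.1.0. Whether bulk counting used strand is not given in the sources used here, so a gene and an overlapping antisense gene cannot be told apart.

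Members and gene lists were chosen with earlier results of these data known. Cells were filtered and the rule applied in Python 3.11.15 with scanpy 1.11.5 (2000 variable genes, 30 components, 15 neighbours, resolution 0.5 for clusters). UMIs were pooled over cells, and intervals (95%) and the floor of 3 counts cover counting error only. Genes named are those of the rule, up to 6 per list with the highest level and any at 0 or standing out, the 25 with the largest fold, those with at least 80% of their UMIs in members, and up to 8 identity genes with the smallest p per bulk comparison. Genes of the Ccl3 split, and bulk or class values that stood out in other lists, were picked after their values had been seen.

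Bulk counts were tested with edgeR 4.0.16 (TMM, filterByExpr, quasi-likelihood, Benjamini-Hochberg over all genes) in R 4.3.3, on the 8 tumours and on the 3 CD11b-positive libraries separately. The labels number the samples but do not state how they were drawn, so p-values measure the spread between these samples. Entries with date-like names (27 in the tumour and line tables, at most 0.360% of counts) and 1 blank entry in the CD11b table were left out, and 5 columns of the line table were not used. The tests were also run on simulated data. The outcome of that run is not reported here, so no conclusion about the tests is drawn from it. Alternatives were DESeq2 1.42.0, no filter on low counts, a replicate block, single libraries left out, and other rules for members.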

Additional observations from a re-analysis of the deposited data

Results flagged for a closer look

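The rule, restricted and identity genes were examined in groups of 4 Ras tumour libraries whose highest library had at least 1 CPM. Of 39 such groups, 3 had 1 library far from the rest, where chance gives about 1 in 20. Csf3r was at 3.82 CPM in vehicle replicate 4, and the other vehicle tumours lay between 21.5 and 22.2. Pglyrp1, a peptidoglycan-binding granule protein, was at 1.22 CPM in the same library, and the others lay between 7.70 and 7.99. Cxcl2 was at 4.32 CPM in PLX3397 replicate 2, and the other PLX3397 tumours had at most 1.61.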

How the results depend on the processing

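The number of neutrophils lay between 58 (a sum of at least 5 per 1000 UMIs) and 84 (the whole cluster) over 11 alternatives. Leaving out members that meet the C1q rule, or Scrublet doublets, removed 0 cells and could not change the number. Cxcl2 moved to 133 per 10000 at a sum of 5 per 1000, to 113 with at least 3 of 4 genes and to 138 without the deepest cell. Ccl3 moved to 18.3 with at least 3 of 4 genes, and the cause was not tested. The ratio of Cxcr2 without over with Ccl3 was 1.56 at 5 per 1000, 2.16 without the deepest cell and 2.02 after thinning.

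In the Ras tumours DESeq2 called 178 genes and edgeR without a filter called 1, of which 3 and 1 were rule or identity genes. The main test there held 4 rule and 17 identity genes among 18366. The 3 genes had 35.9% (Il1r2), 19.3% (Trem1) and 5.19% (Mmp9) of their 10x UMIs in neutrophils. In the CD11b-positive cells, where edgeR called 956, the counts were 1980 and 1907, with 4 and 2 such genes, and the causes were not tested. The main test there held 4 rule and 20 identity genes among 15052. Whether rule and identity genes were called more often than all genes was not tested. With DESeq2, Il1r2 (adjusted p = 1.83e-20), Trem1 (2.97e-06) and Mmp9 (0.0172) passed in the tumours and Csf3r (0.00824), Cxcr2 (0.000647) and Clec4d (0.00428) in the CD11b-positive cells. Without a filter, edgeR gave adjusted p-values of 0.0243 for Il1r2 in the tumours and 0.0397 for Csf3r in the CD11b-positive cells.

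S100a8 in the Ras tumours had log2 folds from -0.16 to 1.14 with single libraries left out, below 0 without vehicle replicate 1 (-0.062), vehicle replicate 2 (-0.045) or PLX3397 replicate 1 (-0.16). S100a9 ranged from -0.29 to 0.65, above 0 without vehicle replicate 3 (0.65), vehicle replicate 4 (0.012), PLX3397 replicate 3 (0.076) or PLX3397 replicate 4 (0.072). The replicate numbers did not pair the tumours (correlations of 0.11, 0.13, -0.42 and 0.45 between same-numbered libraries), and the fit with the replicate block called 0 genes and gave S100a9 a log2 fold of 0.30. Leaving out a PLX3397 library of CD11b-positive cells gave values with no test, 0.74 to 1.95 for S100a8, 0.64 to 1.79 for S100a9, 0.72 to 0.92 for Csf3r, 1.04 to 2.25 for Cxcr2, 0.18 to 1.01 for Retnlg and -1.79 to -0.72 for Il1r2. Of 216 alternatives for 32 further results, 190 were labelled the same as the main result. For bulk folds this means the same sign and, where a test was run, the same side of the threshold. For the single-cell levels and the count of restricted genes it refers to the size of the value only. Leaving out members that meet the C1q rule removed 0 cells, so that setting could not change a level. Bulk genes with adjusted p-values far above the threshold had little room to change side. A gene with no UMI in the 74 neutrophils could still stand at up to 0.119 per 10000 (3 UMIs).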

Other observations

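Ier3, an early-response gene (45.0 per 10000 UMIs), Dusp1, a phosphatase of stress signalling (33.3), the nuclear RNA Neat1 (29.4), the proteoglycan gene Srgn (56.0) and the ferritin chain Fth1 (205) were among the most abundant transcripts of the neutrophils outside the lists. Their folds over all other cells were 12.6 for Ier3, 37.5 for Dusp1, 16.5 for Neat1 and 4.63 for Fth1.

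G0s2 stood at 48.6 per 10000 UMIs in the neutrophils, between 1.64 and 7.93 CPM in the Ras tumours and between 16.6 and 42.1 CPM in the cultured lines. In the CD11b-positive table it had at most 1 count in a library. The entry for G0s2 in that table was not examined further.

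Pooled over all kept 10x cells, S100a8 stood at 59.0 in each 1000000 UMIs, S100a9 at 70.2, Csf3r at 8.86 and Cxcr2 at 5.48. The bulk vehicle tumours had means of 2.03 CPM for S100a8, 3.86 for S100a9, 17.4 for Csf3r and 0.863 for Cxcr2. The methods count different parts of a transcript, so these are values side by side.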
